A study of Mus musculus with 7 samples.

Results

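Fetal livers of mouse embryos that lost Taf10 in the red cell lineage were compared with livers of heterozygous embryos that carried the same Cre. Libraries were chosen by the genotype in the labels, TAF10KO (2 livers) against TAF10HET (3 livers), which makes 5 of the 7 RNA-seq libraries of the study. The other 2, labelled WT, were not compared. They are given beside the comparison as values, and they enter the fit through its estimates of spread and of the date term. All embryos were of the C57BL/6 strain at stage E12.5, and total RNA came from a single-cell suspension of the whole fetal liver.

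Both TAF10KO livers were titled lox/lox with EpoCre, where lox is a Taf10 allele that Cre can delete. One TAF10HET liver (replicate 1) was lox/wt with EpoCre, and the other 2 (replicates 2 and 3) were wt/ko with EpoCre, so they carried 1 lasting null allele in every cell and nothing for Cre to delete. The WT livers were lox/lox without Cre. The series text gives the knockout as lox/KO instead, and the titles are followed here. The Cre is read from the erythropoietin receptor gene, so deletion is directed to the erythroid lineage, and the other cells of a lox/lox liver should keep Taf10. Titles also carry a 6-digit code that looks like a date. The first of these codes covers TAF10KO replicate 1, TAF10HET replicate 1 and WT replicate 1, and the second covers the remaining 4, so the kind of heterozygote cannot be told apart from the date code.

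TAF10 is a small histone-fold protein that belongs both to TFIID, the complex that helps to place RNA polymerase II at promoters, and to SAGA, a coactivator that modifies histones. At this stage the fetal liver is mainly an organ of red cell formation, in which erythroblasts pass from rapid division to haemoglobin synthesis, among hepatoblasts, endothelium, macrophages and early myeloid cells. In low oxygen, hypoxia-inducible factors (HIF) accumulate and raise the transcription of genes for glycolysis, vessel growth and mitophagy, and when amino acids are short or proteins misfold, the factor ATF4 raises genes of amino acid supply in the integrated stress response.

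Values below are CPM, read counts scaled to a common library total with TMM factors, and the values of a group are given in replicate order. Gene totals ran from 18008391 to 43401474 reads a library, and both TAF10KO libraries were deeper than the 3 TAF10HET libraries. The first principal component of the 5 libraries (65.3% of the variance) followed the date code. The second (15.9%) held the TAF10KO libraries at 32.0 and 26.0 and the TAF10HET libraries between -29.6 and -10.6. By Xist, TAF10HET replicate 1 and TAF10KO replicate 2 were male and the others female, so the sexes of knockout and heterozygote differed on both dates, in opposite directions. The labels do not say whether livers came from separate litters, and p-values measure the spread between these libraries.

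Taf10 itself (ENSMUSG00000043866, chromosome 7, 105739393 to 105744361, GRCm38, the build also called mm10) checks the labels. The 2 knockout livers had 37.8 and 43.8 CPM, and the 3 heterozygous livers had 78.1, 63.7 and 63.0 CPM. Both knockout livers lay below all 3 heterozygous ones. For 3175 of the 15800 genes tested the 2 groups did not overlap, in 1 direction or the other. The log2 difference was -0.73 (SE 0.16, edgeR adjusted p = 0.0782), which did not pass the threshold of 0.05. The WT livers stood at 72.0 and 96.5 CPM. Reads were counted over the whole gene, the labels do not say which exons lie between the lox sites, and non-erythroid cells of the liver add their own Taf10 RNA. Epor, the erythropoietin receptor gene that drives the Cre, was at 83.1 and 99.2 CPM in TAF10KO, 156, 139 and 125 CPM in TAF10HET, and 158 and 239 CPM in WT. Its log2 difference between knockout and heterozygote was -0.61 (SE 0.18, edgeR adjusted p = 0.15).

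Between knockout and heterozygote, 182 of 15800 genes tested rose and 72 fell, by edgeR's quasi-likelihood test with the date code as a block (1.15% higher and 0.456% lower, 1.61% in all). The fit used all 7 libraries, with the WT livers included. The median difference of all genes was 0.0028 on the log2 scale. Of the risers 60 reached at least 2-fold, and of the fallers 23 did. For all 182 risers and all 72 fallers the knockout liver lay outside the heterozygous livers in the same direction on both dates, as it did for 6711 genes tested (42.5%). Over the 5 libraries regardless of date, the groups did not overlap for 149 risers, 68 fallers and 3175 of all 15800 genes. The plot of within-date differences shows the called genes along the diagonal. The same libraries, with the date code as block, chose these genes, so their place in the plot is a description and no added support.

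**Figure D1:**
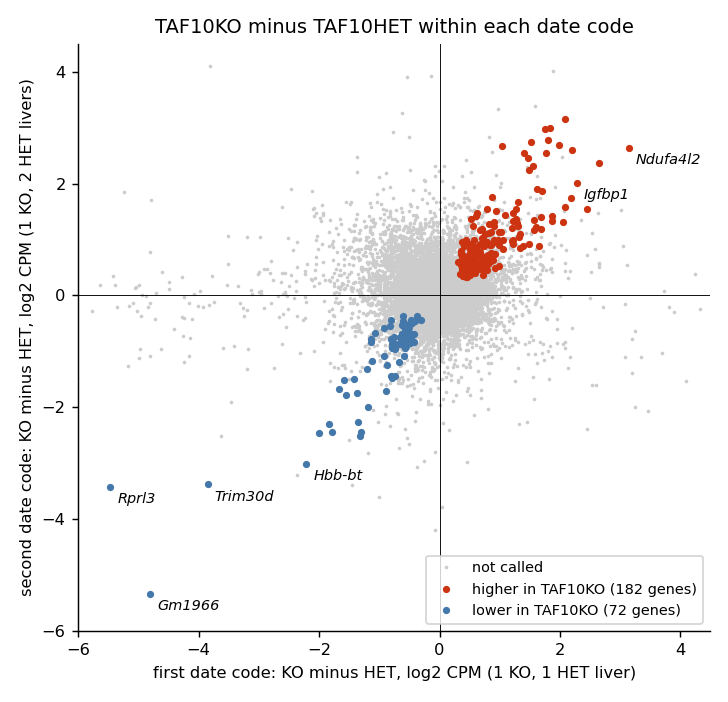
Log2 CPM difference between TAF10KO and TAF10HET on the first date code (x axis, 1 liver against 1) and the second (y axis, 1 liver against the mean of 2), 1 point a gene. Red points are the 182 genes that rose and blue points the 72 that fell. Another 22 genes lie beyond the axes.

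These counts moved with the libraries in the fit. Without TAF10HET replicate 3, 12 genes rose and 4 fell, and without TAF10HET replicate 2, 31 and 11. With the 5 compared libraries alone, 21 rose and 5 fell. A fit without 1 WT liver leaves the other alone in its group, where it adds almost nothing to the spread or the date term. Such a fit therefore nearly repeats that of the 5 libraries and is no separate check. Leaving out TAF10HET replicate 1 gave 275 and 211, TAF10KO replicate 1 640 and 563, and TAF10KO replicate 2 333 and 310. Without the date block none was called by edgeR, the one tool run that way, with 854 genes at an unadjusted p under 0.05 (461 higher, 393 lower). In all 17 fits that kept the block, 12 genes rose (Ndufa4l2, Pfkp, Bnip3, Pgk1, Aldoa, Myh7b, Pkm, Hk2, Ampd2, Vegfa, Igfbp1 and Foxh1) and 3 fell (Hsd3b6, Hbb-bt and Hbb-bh1). All 254 called genes kept their direction in each of the 18 alternatives that tested them. Each already had the same direction on both dates, so leaving out a library could hardly reverse it, and this is no added support. Of the 50 called genes named by rule, 10 kept their call without TAF10HET replicate 3, 13 without either WT liver, 20 without TAF10HET replicate 2, 42 without TAF10KO replicate 2, 48 without TAF10HET replicate 1 and 49 without TAF10KO replicate 1.

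Genes of the hypoxia response had the highest median of the 36 gene lists, sex-linked genes left aside. Of 29 tested members 14 rose and none fell, with a median log2 difference of 0.99 (0.81 on the first date, 1.11 on the second). Of these risers Pdk1 is also counted under glycolysis. The rank of this list is a description, since the lists were chosen with earlier results of these data known. The proximal promoters of Bnip3, a riser of this list, and of Pfkp and Pgk1, risers of the glycolysis list, are shown as the letters searched. They were picked from the genes that rose in every fit with the block, and because they hold the HIF binding core, ACGTG or GCGTG. Each is the 250 bases before the RefSeq start (GRCm38.p6), printed 5′ to 3′ on the strand of the gene, with capitals for the core on that strand or for its complement, CACGT or CACGC, where the core is on the other strand. They are Pfkp at chr13:6648772-6649021 on the minus strand, Bnip3 at chr7:138909507-138909756 on the minus strand and Pgk1 at chrX:106186850-106187099 on the plus strand.
Pfkp: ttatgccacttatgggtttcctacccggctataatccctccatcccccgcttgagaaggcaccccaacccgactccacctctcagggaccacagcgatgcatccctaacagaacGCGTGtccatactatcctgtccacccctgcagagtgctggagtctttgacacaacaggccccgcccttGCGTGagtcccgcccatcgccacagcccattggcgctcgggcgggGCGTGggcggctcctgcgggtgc
Bnip3: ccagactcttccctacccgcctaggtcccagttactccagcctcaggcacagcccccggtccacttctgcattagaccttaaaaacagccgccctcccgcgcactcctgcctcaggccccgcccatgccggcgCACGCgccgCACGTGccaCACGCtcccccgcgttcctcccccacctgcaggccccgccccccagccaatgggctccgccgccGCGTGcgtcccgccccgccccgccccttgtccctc
Pgk1: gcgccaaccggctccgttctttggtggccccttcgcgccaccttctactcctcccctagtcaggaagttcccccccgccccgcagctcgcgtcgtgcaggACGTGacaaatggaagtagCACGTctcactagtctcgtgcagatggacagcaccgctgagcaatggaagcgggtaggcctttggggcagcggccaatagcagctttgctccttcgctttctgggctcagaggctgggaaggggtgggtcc

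Pfkp holds 3 matches, Bnip3 5 (of which the palindrome CACGTG gives 1 on each strand) and Pgk1 2. The core is common. It lay in 43.8% of 32851 RefSeq windows that run from 250 bases before to 50 after a start, and in 19 of the 24 windows (79.2%) of the 15 glycolysis genes that rose. Over the 25 tested glycolysis genes, called or not, it lay in 29 of 39 windows (74.4%), which belong to 21 of the 25. Among windows of all tested genes the share was 59.5%, of all risers 68.0%, and of the tested integrated stress response genes 76.5%, so the core was also frequent outside glycolysis. RefSeq windows matched 72.8% of tested genes and 76.4% of risers, too few for a check of those 2 shares. A match describes letters and is no evidence of binding.

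Ndufa4l2 (chromosome 10, 127514967 to 127517154), a mitochondrial protein that dampens the respiratory chain in hypoxia, reached 15.2 and 41.8 CPM in TAF10KO, against 1.66, 7.11 and 6.22 CPM in TAF10HET. The knockout liver was the highest on each date, and the groups did not overlap. The log2 difference was 2.82 (SE 0.15, edgeR adjusted p = 0.00125). Bnip3, a receptor that marks mitochondria for mitophagy, stood at 136 and 250 CPM in TAF10KO against 44.1, 73.1 and 60.0 CPM in TAF10HET. Again the groups were apart, by 1.79 on the log2 scale (SE 0.11, edgeR adjusted p = 0.00125). The WT livers lay among the heterozygous values for Bnip3 or just above them, at 51.3 and 83.6 CPM.

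Vegfa, the growth factor that drives vessel formation, was at 123 and 132 CPM in TAF10KO and at 57.9, 48.6 and 48.3 CPM in TAF10HET. All 3 heterozygous livers lay below both knockout livers, with the WT livers at 58.4 and 47.6 CPM. Its log2 difference was 1.28 (SE 0.10, edgeR adjusted p = 0.00259). Of the prolyl hydroxylases that mark HIF for destruction, Egln3 rose by 1.95 and Egln1 by 0.76 on the log2 scale. Egln3 stood at 21.1 and 37.9 CPM in TAF10KO, against 7.50, 7.93 and 7.98 CPM in TAF10HET, and Ankrd37, an ankyrin-repeat gene induced by HIF, at 5.02 and 12.2 against 1.66, 2.75 and 2.11. For both genes the second-date knockout liver was the highest.

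Further risers of the list span several roles. Among them were the glucose transporter Slc2a3, the mitochondrial adenylate kinase Ak4 (0.97), the collagen prolyl hydroxylase P4ha1 (0.99), the disulfide oxidase Ero1l (1.09), the repressor Bhlhe40 (1.09), the histone demethylase Kdm3a (0.83) and the pyruvate dehydrogenase kinase Pdk1 (0.68), all but the first with log2 differences in brackets. Slc2a3 had 119 and 193 CPM in the knockout livers against 65.8, 85.5 and 90.3 CPM, without overlap. The 15 members that were not called ranged from -0.38 for the lipid droplet gene Plin2 to 2.04 for Ddit4, an inhibitor of mTOR. Ddit4 stood at 15.2 and 41.6 CPM in TAF10KO against 8.59, 7.19 and 4.63 CPM in TAF10HET. The groups of Ddit4 were apart, but with an SE of 0.50 its edgeR adjusted p was 0.138. Hif1a, which encodes the HIF subunit that oxygen regulates at the protein level, was not called (log2 -0.27, edgeR adjusted p = 0.153). Without TAF10HET replicate 3 the list kept 3 called risers, without replicate 2 it kept 8, and without either WT liver 7 or 8, while without TAF10KO replicate 1 it had 22. Its median stayed between 0.76 and 1.07 over all the leave-outs.

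Glycolysis rose along nearly its whole length. Of 25 tested genes 15 rose and none fell, with a median log2 difference of 0.71 (0.81 on the first date and 0.70 on the second). Hexokinase 2 (Hk2), which traps glucose, rose by 1.08, glucose-6-phosphate isomerase (Gpi1) by 1.09 and the platelet form of phosphofructokinase (Pfkp) by 1.79 on the log2 scale. Aldolase A (Aldoa) rose by 1.44, triosephosphate isomerase (Tpi1) by 0.76, glyceraldehyde-3-phosphate dehydrogenase (Gapdh) by 0.74, phosphoglycerate kinase 1 (Pgk1) by 1.20 and phosphoglycerate mutase 1 (Pgam1) by 0.82. Enolase 1 (Eno1) rose by 1.05, the muscle form of pyruvate kinase (Pkm) by 1.29, lactate dehydrogenase A (Ldha) by 0.69 and the lactate exporter Slc16a3 by 1.20.

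Pgk1 shows the spread. The knockout livers had 912 and 1064 CPM, the heterozygous ones 395, 467 and 458 CPM and the WT ones 422 and 482 CPM. Both knockout values lay far above the other 5 (log2 1.20, SE 0.08, edgeR adjusted p = 0.0016). Aldoa, one of the most abundant of these mRNAs, stood at 1057 and 1582 CPM in TAF10KO and at 356, 646 and 600 CPM in TAF10HET. The first-date heterozygote was the lowest for Aldoa, and the groups did not overlap (edgeR adjusted p = 0.0016). Pfkp stood at 56.5 and 110 CPM against 17.2, 31.1 and 28.9 CPM (edgeR adjusted p = 0.00125), with no overlap and with WT at 20.6 and 29.7 CPM.

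The 10 glycolysis genes that were not called included Pklr, Hk1 and Pfkm. The red cell and liver pyruvate kinase Pklr was at 518 and 569 CPM in TAF10KO and 398, 808 and 829 CPM in TAF10HET (log2 -0.13), hexokinase 1 (Hk1) differed by 0.09 and the muscle phosphofructokinase Pfkm by 0.11. Their knockout values lay inside the heterozygous range. The 10 ranged from -0.34 for Slc16a1 to 0.56 for Pfkl. Without TAF10HET replicate 3 the number of called glycolysis genes was 5, without WT replicate 1 it was 6, without WT replicate 2 it was 5 and without TAF10HET replicate 2 it was 9, and the median stayed between 0.69 and 0.75. Gapdh, Aldoa, Pgk1, Tpi1 and Ldha have near-identical copies elsewhere in the genome, and reads that aligned to several places were left out of the counts.

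**Figure D2:**
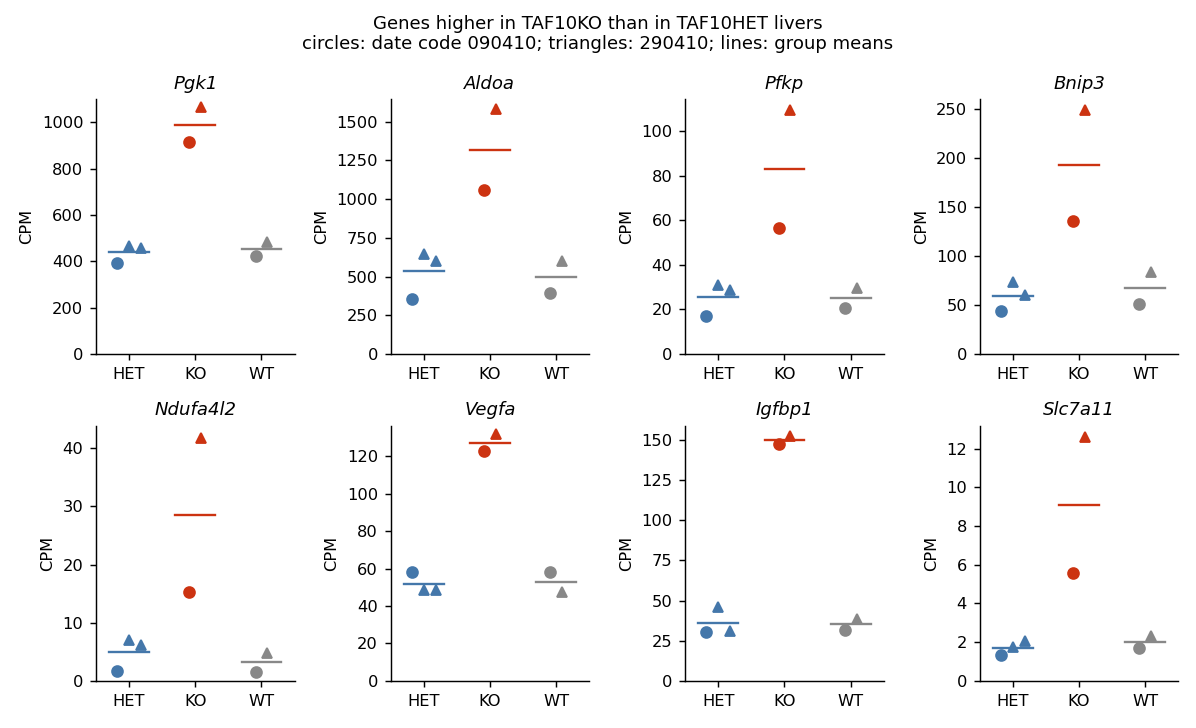
CPM of 8 genes that rose (y axes, linear, from 0), 1 point a liver, by group, with the group mean as a line and no error bar. The TAF10KO points lie above all TAF10HET and WT points in each panel, and for Pgk1 they stand at 912 and 1064 CPM against at most 482 CPM.

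Of 34 tested genes of the integrated stress response 12 rose and none fell, with a median log2 difference of 0.52 (0.43 and 0.48 on the 2 dates). The cystine importer Slc7a11 stood at 5.57 and 12.6 CPM in TAF10KO and at 1.35, 1.74 and 2.05 CPM in TAF10HET. Both knockout livers were above every other one, WT included (1.68 and 2.32 CPM), and the log2 difference was 2.47 (SE 0.22, edgeR adjusted p = 0.00463). The cationic amino acid carrier Slc7a3 rose by 2.57, the secreted glycoprotein stanniocalcin 2 (Stc2) by 2.51 and the small stress protein Nupr1 by 2.14 on the log2 scale. Stc2 stood at 15.7 and 33.1 CPM in TAF10KO against 4.60, 3.91 and 4.40 CPM in TAF10HET, with the second-date knockout highest.

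The mitochondrial folate enzymes Mthfd2 and Shmt2 rose by 0.55 and 0.49, the mitochondrial carboxykinase Pck2 by 0.56 and the seryl-tRNA synthetase Sars by 0.42 on the log2 scale. The rest of the 12 were the lipoprotein receptor Vldlr (1.28), the transcription factor Cebpb (1.16), the stress-induced sestrin Sesn2 (0.88) and the translation repressor Eif4ebp1 (0.76). Atf4 itself was at 266 and 451 CPM in TAF10KO and 323, 385 and 361 CPM in TAF10HET, so the knockout livers lay on both sides of the heterozygotes (log2 0.04). Asns (0.30), Psat1 (0.08) and Phgdh (0.14), which make asparagine and serine, were not called.

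The pseudokinase Trib3, an ATF4 target, had the highest difference in the list and still missed the threshold. It stood at 30.3 and 108 CPM in TAF10KO against 10.1, 12.8 and 8.09 CPM in TAF10HET. The groups were apart, but the second-date knockout was far above the first (log2 2.67, SE 0.42, edgeR adjusted p = 0.0624). In this list the number of called risers was 0 without TAF10HET replicate 3, 1 without either WT liver, 3 without TAF10HET replicate 2, 8 without TAF10KO replicate 2 and 22 without TAF10KO replicate 1. The ATF4 composite motif TGATGNAA, searched on both strands, lay in 4 of the 11 RefSeq windows of the risers (Nupr1, Pck2, Slc7a11 and Vldlr). It lay in 10 of 34 windows of all tested members, and in 3.97% of all windows, 345 of the 14675 windows of tested genes and 3.37% of those of all risers. RefSeq windows matched 10 of the 12 risers and 28 of the 34 tested members.

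Igfbp1, a liver-secreted protein that binds insulin-like growth factors, stood at 147 and 152 CPM in TAF10KO and at 30.3, 46.3 and 30.8 CPM in TAF10HET. The knockout livers lay close together, and the WT livers, at 31.7 and 38.8 CPM, lay in the heterozygous range. The log2 difference was 2.11 (SE 0.16, edgeR adjusted p = 0.00387), and Igfbp1 was the only called gene among 15 of the insulin-like growth factor axis. The peptide hormone Adm2 rose by 2.08, and the G-protein regulator Rgs11, at 3.64 and 8.54 CPM in TAF10KO against 0.517, 1.39 and 1.82 CPM in TAF10HET, by 2.47 on the log2 scale. Adm2 and Nupr1 kept their call in 2 of the 7 fits that left out a library.

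Genes that answer oxidants followed in part. Of 22 NRF2 antioxidant genes 4 rose and none fell, with a median log2 difference of 0.18. These were Slc7a11, the ferritin light chain Ftl1 (0.72), the glutathione transferase Gstm1 (0.57) and the autophagy adaptor Sqstm1 (0.40). Gstm1 stood at 131 and 144 CPM in TAF10KO against 98.9, 86.7 and 91.0 CPM in TAF10HET, with no overlap. Without TAF10HET replicate 3 none of the list was called, and without TAF10HET replicate 2 or either WT liver 1 was.

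**Figure D3:**
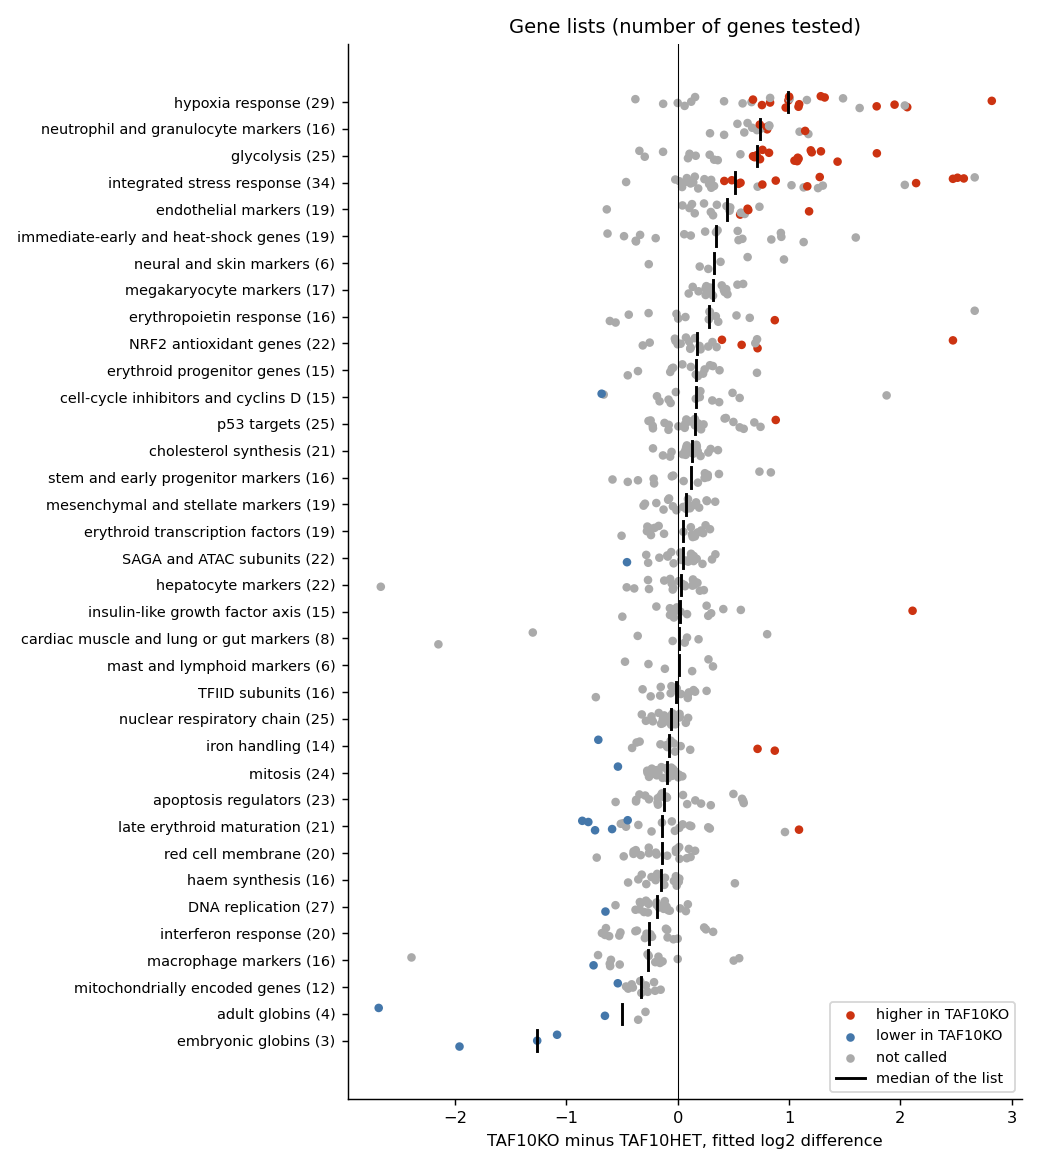
Fitted log2 difference between TAF10KO and TAF10HET (x axis) of every tested member of 36 gene lists, ordered by median. Red members rose, blue members fell, grey members were not called, and black bars mark the medians, from 0.99 for the hypoxia response to -1.26 for the embryonic globins.

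In the other direction, embryonic globins fell. All 3 tested members, Hba-x, Hbb-bh1 and Hbb-y, which primitive red cells of the yolk sac use for embryonic haemoglobin, were lower in the knockout. The median log2 difference was -1.26, which is the value of Hbb-bh1. Hbb-bh1 and Hbb-y lie near Taf10 on chromosome 7, and for Hbb-bh1 the WT livers (234 and 494 CPM) lay closer to the knockout. Hba-x (chromosome 11, 32276400 to 32278116) had 113 and 153 CPM in the knockout livers and 282, 894 and 848 CPM in the heterozygous ones. Both knockout values lay below the lowest heterozygote, which was the first-date liver. The log2 difference was -1.96 (SE 0.27, edgeR adjusted p = 0.0272), and the WT livers stood at 317 and 802 CPM. Hbb-y stood at 1072 and 1346 CPM in TAF10KO against 1966, 3367 and 3016 CPM in TAF10HET, with WT at 1936 and 2902 CPM. Its groups did not overlap either (log2 -1.08, SE 0.12, edgeR adjusted p = 0.0113). Without TAF10HET replicate 3 or either WT liver 1 of the 3 was called, and without TAF10HET replicate 2 it was 2. The median stayed between -1.33 and -1.19, which is also the range of Hbb-bh1.

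All 4 tested adult globins had differences below 0, and 2 of them were called. Hba-a2 fell, from 3736, 3738 and 3759 CPM in TAF10HET to 2114 and 2580 CPM in TAF10KO (log2 -0.65, SE 0.11, edgeR adjusted p = 0.0373), while Hba-a1 was at 5697 and 6441 CPM in TAF10KO and 6979, 10474 and 6499 CPM in TAF10HET (log2 -0.35, not called). Both knockout values of Hba-a1 also lay below all 3 heterozygous ones. The transcripts of Hba-a1 and Hba-a2 are 99.81% identical over 538 aligned bases, so the split of reads between them is uncertain. Hbb-bs was at 8907 and 17242 CPM in TAF10KO and 14377, 18362 and 16283 CPM in TAF10HET. The groups of Hbb-bs overlapped (log2 -0.29, not called). Hbb-bt, the other adult beta globin, fell by 2.68 on the log2 scale and is taken up with the neighbours of Taf10 below. In a whole liver, fewer cells of a type and less RNA per cell cannot be told apart.

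Some late genes of red cell maturation fell as well, 5 of 21 tested with 1 riser, and the median of the list was -0.14. The nuclear export factor Xpo7 fell by 0.86, the ubiquitin-conjugating enzyme Ube2l6 by 0.80, the bisphosphoglycerate mutase Bpgm, which sets the oxygen affinity of haemoglobin, by 0.74, the carbonic anhydrase Car2 by 0.59 and Ypel4 by 0.45 on the log2 scale. Bpgm stood at 65.5 and 110 CPM in TAF10KO against 125, 186 and 147 CPM in TAF10HET. On each date the knockout was the lowest liver. Car1, another carbonic anhydrase placed in this list, rose, at 33.4 and 62.8 CPM in TAF10KO against 21.9, 24.5 and 22.2 CPM in TAF10HET (log2 1.09, SE 0.17, edgeR adjusted p = 0.0302). Without TAF10HET replicate 2 or 3 or either WT liver none of the list was called as lower, and without TAF10KO replicate 1 the number was 8.

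Core erythroid regulators were not called. None of 19 erythroid transcription factors passed the test, with a median log2 difference of 0.05, which was 0.22 on the first date and -0.19 on the second. Their differences ran from -0.50 for E2f2 to 0.29 for Ldb1. Of 16 genes of haem synthesis none was called either (median -0.15, from -0.45 for Alas2 to 0.51 for Alas1), nor of 20 red cell membrane genes (median -0.14). Slc4a1, the anion exchanger of the red cell membrane, was at 3327 and 3555 CPM in TAF10KO and at 3145, 6328 and 5357 CPM in TAF10HET. The first-date knockout was above its heterozygote and the second-date knockout below its 2.

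Iron genes moved singly. The transferrin receptor Tfrc, by which erythroblasts take up iron, stood at 1280 and 1476 CPM in TAF10KO and at 2018, 2730 and 2225 CPM in TAF10HET, with WT at 2290 and 2636 CPM. The groups did not overlap, and Tfrc fell by 0.71 on the log2 scale (SE 0.12, edgeR adjusted p = 0.0337). Ftl1 rose, at 2326 and 3489 CPM in TAF10KO against 1253, 2078 and 2454 CPM in TAF10HET. Within each date the knockout was higher for Ftl1, but the first-date knockout lay below TAF10HET replicate 3. Erfe, the erythroblast hormone that releases iron by lowering hepcidin, rose by 0.87 and was the only called gene of 16 in the erythropoietin response. The ferritin heavy chain Fth1 (0.11) and the iron-responsive regulator Ireb2 (-0.09) were not called, and the median of the 14 iron genes was -0.08. None of the 14 was called without TAF10HET replicate 2 or 3 or either WT liver.

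The 12 largest falls held 3 globins and 9 genes of other kinds. Hsd3b6, a steroid dehydrogenase, stood at 5.24 and 9.12 CPM in TAF10KO and at 21.3, 48.2 and 53.6 CPM in TAF10HET, with WT at 22.8 and 46.0 CPM. Every knockout value of Hsd3b6 was below every other one (log2 -2.30, SE 0.13, edgeR adjusted p = 0.00125). The corepressor Runx1t1, at 18.1 and 10.2 CPM against 33.4, 33.8 and 33.2 CPM, fell by 1.32, and the calcium channel Cacna1g by 1.55 on the log2 scale. The homeobox factor Lmx1a fell by 1.97, the chaperone gene Dnajb13 by 1.68, Sowaha by 1.19, the sorting nexin Snx22 by 1.17, Kctd14 by 1.16 and the deglycating kinase Fn3k by 1.13. Fn3k was at 39.2 and 39.1 CPM in TAF10KO, while the lowest TAF10HET liver had 65.5 and the highest 118 CPM.

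**Figure D4:**
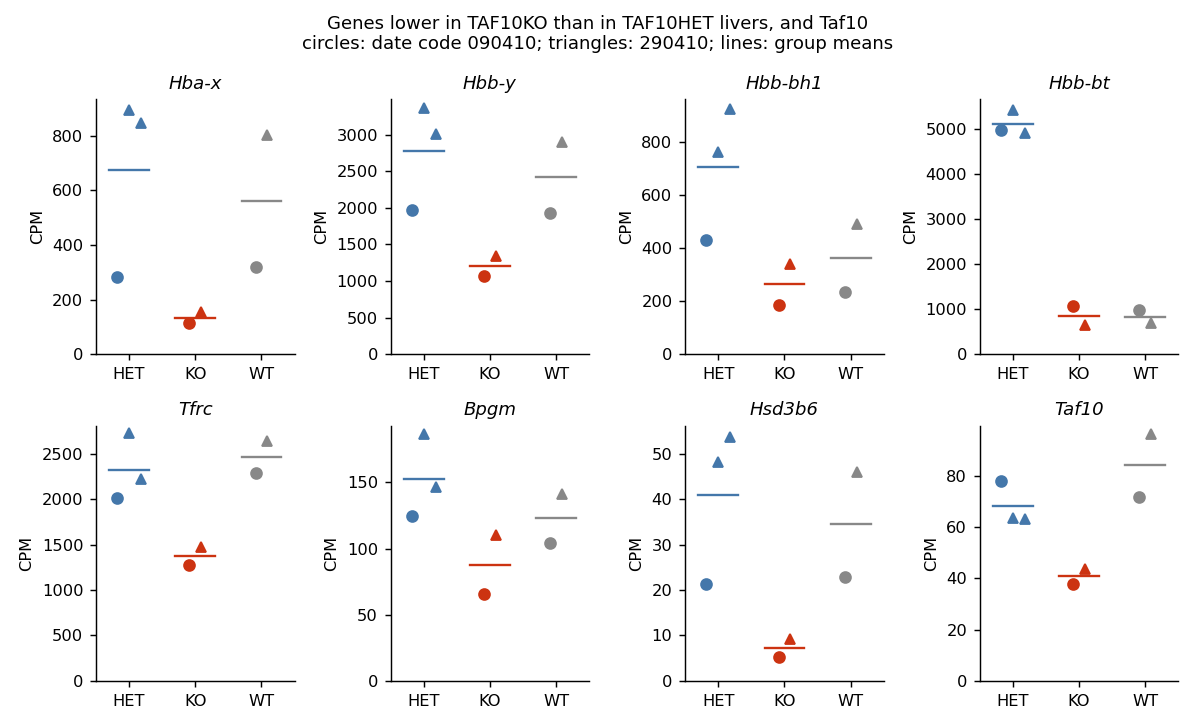
CPM of 7 genes that fell and of Taf10, which was not called (y axes, linear, from 0), 1 point a liver, by group, with the group mean as a line and no error bar. For Hbb-bt the WT livers (967 and 693 CPM) stand with the TAF10KO livers (1072 and 636 CPM), while for Hba-x, Hbb-y, Tfrc and Hsd3b6 both WT livers stand above both TAF10KO livers.

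Of 27 genes of DNA replication 1 fell, the S-phase cyclin Ccne2, and 24 of the 27 had differences below 0, with a median log2 difference of -0.19 (0.00 on the first date and -0.36 on the second). Ccne2 stood at 66.9 and 80.1 CPM in TAF10KO against 103, 126 and 131 CPM in TAF10HET, without overlap (log2 -0.65, SE 0.08, edgeR adjusted p = 0.0142). Of 24 mitotic genes the ubiquitin-conjugating enzyme Ube2c fell (-0.54) and 21 had differences below 0, and of 15 cell-cycle inhibitors and cyclins the inhibitor Cdkn2d fell (-0.68). Ccne2 kept its call in 3 of the 7 fits that left out a library. Without TAF10KO replicate 1, 13 replication genes and 8 mitotic genes were called as lower. DESeq2 called 8 replication and 2 mitotic genes as lower, beside 319 of all 13962 genes it tested. The fit with embryo sex as a term called 14 and 7, beside 1288 of all 15800. Of 25 p53 targets Sesn2 rose (median of the list 0.15), and none of 23 apoptosis regulators was called.

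TFIID and SAGA, which hold TAF10, and ATAC, listed here together with SAGA, kept most of their mRNAs near the level of the heterozygotes. None of 16 TFIID subunits was called, and the median difference was -0.01, from -0.73 for Taf10 to 0.26 for Taf5. Of 22 SAGA and ATAC subunits 1 fell, Eny2 of the deubiquitinating module, at 41.9 and 33.4 CPM in TAF10KO against 56.4, 46.5 and 45.2 CPM in TAF10HET (log2 -0.45, SE 0.08, edgeR adjusted p = 0.043). The other 21 ranged from -0.28 for Taf6l to 0.34 for Trrap. Of 12 mitochondrially encoded genes mt-Nd4, a subunit of complex I, fell by 0.54, and all 11 others had differences below 0, from -0.46 for mt-Nd1 to -0.15 for mt-Co2. None of 25 nuclear genes of the respiratory chain was called (median -0.06).

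Markers of other liver cells moved with these groups in part. Of 16 neutrophil and granulocyte markers 4 rose and none fell, with a median of 0.74. Myeloperoxidase (Mpo) stood at 116 and 199 CPM in TAF10KO against 63.8, 130 and 106 CPM in TAF10HET, and rose by 0.80 on the log2 scale (SE 0.10, edgeR adjusted p = 0.0162). The knockout was higher on each date, but its first-date value lay among the second-date heterozygotes. The ficolin Fcnb rose by 1.14, the integrin Itgam by 0.80 and the protease Prtn3 by 0.74. The summed level of the 16 markers was 550 to 878 CPM in TAF10KO, 353 to 587 CPM in TAF10HET and 431 to 525 CPM in WT, and no marker was at 0. The number called was 0 without TAF10HET replicate 3 or either WT liver, 2 without TAF10HET replicate 2 or TAF10KO replicate 2, and 8 without TAF10KO replicate 1.

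Endothelial markers gave 4 risers of 19, with a median of 0.44. Flt1 and Kdr, the receptors for VEGF, rose by 1.18 and 0.63, the adhesion molecule Pecam1 by 0.63 and the secreted Egfl7 by 0.56 on the log2 scale. Flt1 stood at 42.1 and 25.9 CPM in TAF10KO and at 16.6, 13.5 and 10.8 CPM in TAF10HET, without overlap (SE 0.13, edgeR adjusted p = 0.0113). The other 15 markers ranged from -0.64 for the sinusoidal receptor Lyve1 to 0.73 for Sox17. Summed, the list came to 937 and 481 CPM in TAF10KO, 695, 427 and 381 CPM in TAF10HET and 708 and 359 CPM in WT. The groups overlapped over the 5 libraries, while within each date the knockout sum was the higher. No marker was at 0, and without TAF10HET replicate 3 or either WT liver none was called, and without TAF10HET replicate 2 it was 2. The part of these cells in the rises of Vegfa, Igfbp1 or the glycolysis genes was not tested.

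Macrophage markers tended to lower values, with C1qa, a complement subunit, as the 1 called gene of 16 (log2 -0.75, edgeR adjusted p = 0.0353) and a median of -0.26. Summed, they were 580 and 471 CPM in TAF10KO and 564, 527 and 474 CPM in TAF10HET. The knockout sum was thus above its heterozygote on the first date and below both on the second. Hepatocyte markers were near the heterozygous level, with none of 22 called and a median of 0.03, and the knockout livers held the lowest and the highest of their 5 summed levels. No megakaryocyte marker of 17 was called, although all 17 had differences above 0, from 0.10 for Gp1bb to 0.59 for Vwf, and their sums did not overlap (1271 and 1507 CPM against 1007 to 1167 CPM). Mesenchymal markers followed the date code, as Col3a1 shows, with 547 and 833 CPM in the first-date knockout and heterozygote and 66.5 to 116 CPM on the second date. TAF10HET replicate 1 alone carried the heart actin Actc1 (49.1 CPM, against 2.55 to 3.11 CPM in the other 4 livers compared).

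Falls were frequent near Taf10 on chromosome 7. Of 166 genes tested within 10 Mb of the start of Taf10, 11 fell (6.63%, against 0.456% of all genes) and 2 rose (Gab2 and Dennd5a). The 11 were Alg8, Kctd14, Lrrc32, Dnajb13, Il18bp, Hbb-bt, Hbb-bh1, Hbb-bh0, Hbb-y, Trim30d and Gm1966. Within 5 Mb 7 of 89 fell, and within 20 Mb 12 of 261. TAF10KO and WT livers carried 2 lox chromosomes, while every TAF10HET liver carried at least 1 wild-type Taf10 chromosome, so in this comparison loss of Taf10 and the origin of that chromosome region cannot be told apart. WT values are given beside the members.

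Hbb-bt (chromosome 7, 103812524 to 103813996) had the largest fall of the genes named by rule. It stood at 1072 and 636 CPM in TAF10KO, at 4967, 5411 and 4915 CPM in TAF10HET, and at 967 and 693 CPM in the WT livers. Both WT values lay between the knockout values, and the 3 heterozygous livers were above all 4 (log2 -2.68 for knockout against heterozygote, SE 0.20, edgeR adjusted p = 0.00246). Hbb-bt and its neighbour Hbb-bs are 92.65% identical over 626 aligned bases, which makes the split of their reads uncertain. Hbb-bh1, an embryonic globin of the same cluster, stood at 187 and 339 CPM in TAF10KO, 432, 764 and 925 CPM in TAF10HET, and 234 and 494 CPM in WT, so the WT livers lay closer to the knockout (log2 -1.26, SE 0.11, edgeR adjusted p = 0.00475). Hbb-y of the same cluster, and Hba-x on chromosome 11, had WT values near the heterozygous ones of the same date, as given above.

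Trim30d, a member of a cluster of antiviral TRIM genes, had 19, 19 and 11 reads in the TAF10HET livers and 0 in both TAF10KO livers, which is at least 21.1-fold lower against a floor of 3 reads over the knockout group. The WT livers had 1 and 2 reads. Gm1966, a predicted gene, had 53, 82 and 45 reads in TAF10HET, 1 and 0 in TAF10KO, and 0 and 3 in WT. Its heterozygote to knockout ratio was 232 (95% exact interval 41.2 to 9229), an interval that covers counting error only. Over the 13 called genes within 10 Mb, the WT livers lay nearer to the knockout on both dates for 6 (Alg8, Gm1966, Hbb-bh1, Hbb-bt, Lrrc32 and Trim30d). Among the 241 called genes elsewhere they did so for 4 (Prg3, Pygl, Rint1 and Rprl3). The same TAF10HET and TAF10KO libraries chose the genes and set the distances, so these counts are a description.

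**Figure D5:**
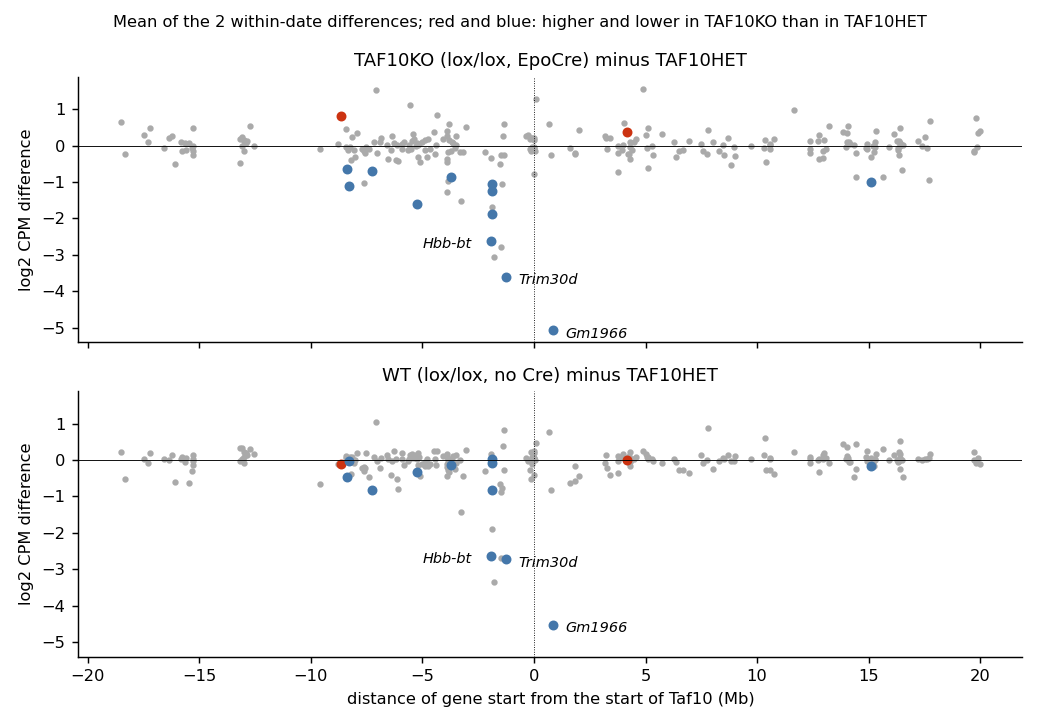
Log2 CPM difference from TAF10HET (y axes, mean of the 2 within-date differences) of genes within 20 Mb of Taf10, by distance of their start from that of Taf10 (x axis, Mb), for TAF10KO (top) and WT (bottom). Red and blue mark the genes that rose and fell in TAF10KO. Hbb-bt, Trim30d and Gm1966 are low in both panels.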

How the data were processed

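Values are raw read counts per Ensembl gene as deposited by the authors, without normalization. TopHat2 2.0.8, DESeq2 and the mm10 build were used per the submitters' processing notes, and the counting program, annotation and strand setting are not named by those notes or by any file header. Summary rows were removed (per library, 6.81% to 10.1% of reads in no gene, 3.98% to 5.94% ambiguous and 14.1% to 22.2% not unique). Symbols and positions came from GENCODE M21, which matched 37693 of 39017 genes.

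Genes were filtered with filterByExpr by group, scaled by TMM and tested with edgeR 4.0.16 (R 4.3.3) by the quasi-likelihood F test with robust dispersions, two-sided, on all 7 libraries with group and date code as terms. The WT libraries enter the estimates of spread and date. P-values were adjusted over all 15800 genes by the Benjamini-Hochberg method at 0.05. SE is the log2 difference over the root of F. CPM are counts over the library total times its TMM factor, and within-date differences used log2 CPM with a prior count of 2. Embryos with Xist under 10 CPM, scaled by library total alone, were taken as male. Same-date libraries deviated together from their group means (correlation across genes 0.40 to 0.74 in 8 pairs). With 2 livers in a group deviations mirror each other, so these pairs are not independent. The date code was the block by design, although no label states what it marks. On simulated counts for this comparison (15634 genes), 90% of genes changed by 1 on the log2 scale and 98% of those changed by 2 were recovered, with 20 false calls. The counts were drawn with the spread of the main fit, and changes were put only in genes above 1 log2 CPM. The run therefore checks the fitting steps and does not measure how stable the calls in the real libraries are.

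Named genes are Taf10, Epor, the 12 largest rises and falls among called genes that averaged at least 1 log2 CPM and did not overlap within dates, leaving out sex-linked, predicted and pseudogene symbols, and up to 3 called members of each list or, where none was called, its most abundant one. Other list members and the called genes near Taf10 were named after their values were seen. Members and lists were chosen with earlier results of these data known, and lists carry no test. Alternatives were fits without the block, on the 5 libraries, with DESeq2 1.42.0, with limma 3.58.1 (voom), other scalings and filters, non-robust dispersions, embryo sex as a term, and each library left out. Values of some single genes are not reported here.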

Additional observations from a re-analysis of the deposited data

Results flagged for a closer look

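For 9 of the 20 named genes that were not called, the knockout lay on opposite sides of the heterozygous livers on the 2 date codes. Called genes all kept 1 direction on both dates, so none of them could be flagged. The share of all tested genes with opposite sides was not counted, so the number is no result about these genes. The difference between the dates was not tested, with 1 knockout liver a date. Differences below are the second-date log2 CPM difference minus the first-date one. Slc4a1, the red cell anion exchanger, had -0.79, Tal1, an erythroid transcription factor, had -0.55, and the mitochondrial iron importer Slc25a37 had -0.54. In each of these 3 the knockout was above the heterozygote on the first date and below both heterozygotes on the second. The interferon-induced ligase Trim25 had -0.62, the TFIID subunit Taf1 -0.38, the progenitor gene Zfp36l2 -0.37 and the ATP synthase subunit Atp5b -0.29, in the same direction. The collagen gene Col3a1 went the other way, with 1.37. Xist gave -19.73, and embryo sex also changed sides between the dates, from a female knockout and a male heterozygote on the first to a male knockout and 2 female heterozygotes on the second.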

How the results depend on the processing

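The replicate block carried most calls. With no replicate block 0 genes rose and 0 fell. The 5 compared libraries alone gave 21 and 5, DESeq2 371 and 319, no filter 960 and 538, and embryo sex as a further term 1455 and 1288, which held all 182 risers and 69 of the 72 fallers. Leaving out 1 library gave 12 to 640 risers and 4 to 563 fallers. The cause of these moves was not tested. Of 50 named and called genes every one kept its direction where it was tested, which their shared direction on both dates made nearly certain. With the 5 libraries alone 13 kept their call, without TAF10HET replicate 3 10, and without TAF10HET replicate 2 20. Limma voom, both other scalings and globin genes out of the totals kept all 50. The least abundant called genes, such as Trim30d and Gm1966, rest on few reads.

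Some directions reversed. Atp5b moved from -0.02 to 0.0013 with the sex term and 0.018 with no filter, and Zfp36l2 from 0.04 to -0.071 with no replicate block. With 1 library left out, the range was -0.118 to 0.071 for Atp5b, -0.468 to 0.668 for Col3a1, -0.40 to 0.084 for Cpa3, -0.325 to 0.106 for Slc25a37, -0.033 to 0.212 for Taf1, -0.371 to 0.039 for Tal1, -0.328 to 0.13 for Trim25, -9.76 to 4.90 for Xist and -0.091 to 0.176 for Zfp36l2. List medians ran from -0.225 to 0.13 for iron handling and from -0.00035 to 0.169 for the insulin-like growth factor axis. In all, 11 of 36 list medians changed sign when a library was left out, 9 of them in lists with no called member, such as erythroid transcription factors (-0.185 to 0.118), hepatocyte (-0.149 to 0.125), mesenchymal (-0.485 to 0.54) and neural and skin markers (-0.15 to 0.73). Under the other alternatives 6 did.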

Other observations

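Other gene families, picked after their values were seen, are given as values. Of 17 lysine demethylases tested, enzymes that remove methyl groups from histones with the help of oxygen, 5 rose and none fell (Kdm3a, Kdm6b, Kdm4b, Kdm4a and Kdm5b), and the median log2 difference was 0.17. Kdm6b had 49.6 and 47.9 CPM in the knockout livers and 28.8, 28.5 and 31.3 CPM in the heterozygous ones, without overlap (log2 0.72, SE 0.08, edgeR adjusted p = 0.0124). Both tested metallothioneins, which bind zinc and copper, rose. Mt1 had 947 and 1141 CPM against 503, 843 and 782 CPM, and Mt2 1018 and 1606 CPM against 672, 909 and 862 CPM, with no overlap for either gene.

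Some genes that were not called had livers that stood apart. The urea cycle gene Cps1 had 7.46 CPM in TAF10HET replicate 2 and at most 0.776 CPM in the other 6 livers. The macrophage scavenger receptor Marco had 7.33 and 1.63 CPM in TAF10KO against 20.2, 18.6 and 17.1 CPM in TAF10HET (log2 -2.39, SE 0.46, edgeR adjusted p = 0.0829). Both knockout values of Marco were below all others, WT included (17.8 and 13.0 CPM).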
